A study of Homo sapiens with 9 samples.

Results

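AMTN, ONECUT2, FBXL7, ELFN1, CLDN3 and SNAP25 are 6 of the 60671 genes in the deposited tables. They were chosen by their low counts in the CA2 shRNA libraries against the Scrambled and Control libraries, so their falls there describe the choice and carry no test. The total RNA came from C28/I2, a human chondrocyte line immortalised with a viral oncogene, in 3 groups of 3 libraries. The tested cells are labelled CA2 shRNA, a short hairpin RNA against carbonic anhydrase 2, and the comparison groups are labelled Scrambled and Control. The labels do not describe the scrambled construct, what the Control cells received, how many hairpins were used, how long cells were kept, or whether replicates were separate cultures. P-values therefore measure the spread between libraries, which may be technical. In bulk RNA, fewer cells that express a gene and less RNA per cell cannot be told apart.

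The genes belong to unrelated families. AMTN encodes amelotin, a secreted protein of the basal lamina that maturing ameloblasts lay on enamel. ONECUT2 is a transcription factor with a cut domain and a homeodomain, known from liver, pancreas and neural development. FBXL7 is an F-box protein with leucine-rich repeats, which brings substrates to the SCF ubiquitin ligase. ELFN1 is a synaptic membrane protein with leucine-rich repeats that binds metabotropic glutamate receptors, as shown in mice. CLDN3 is a claudin, a strand-forming protein of epithelial tight junctions. SNAP25 is a SNARE protein that pairs with syntaxin and synaptobrevin to fuse synaptic vesicles with the plasma membrane.

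Total counts ran from 16994368 to 34261244 per library. CA2, the targeted gene, had 28, 15 and 30 counts in CA2 shRNA, 41, 53 and 61 in Scrambled, and 55, 41 and 66 in Control. Its mean level was 58.2% of the Scrambled mean and 54.4% of the Control mean. The CA2 log2 change was -0.77 (SE 0.231, edgeR quasi-likelihood adjusted p = 0.0276) against Scrambled and -0.86 (SE 0.23, adjusted p = 0.0159) against Control. Leaving out Scrambled 2 or 3, or CA2 shRNA 2 or 3, or applying no filter on low counts, ended the call against Scrambled (adjusted p 0.0253 to 0.109 over the alternatives). Leaving out Control 1, or CA2 shRNA 2 or 3, ended it against Control (0.0151 to 0.0759). Scrambled 2 and Control 3 differed from the remaining libraries in mitochondrial counts, with 4.08% and 4.06%, against 5.55% to 6.62% in CA2 shRNA and 5.85% to 6.87% in the other 4. The chondrocyte regulator SOX9 stood at 26.5 RPKM in CA2 shRNA, 23.2 in Scrambled and 23.0 in Control, while COL2A1 and ACAN, which define cartilage, stayed under 0.3 RPKM in each group mean. COL9A1 had no count in any library. Other cartilage matrix genes were detected, with MATN3 at 3.72, 4.17 and 4.10 RPKM in CA2 shRNA, Scrambled and Control. In the same order COL9A3 was at 0.858, 0.942 and 0.851 RPKM, and COL11A2 at 0.763, 0.783 and 0.721 RPKM.

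The 6 genes differ in a sequence feature, shown first because it is a property of the genes and not of their level. Earlier results of these data drew attention to ACACCAA and CACCAAA in the 3′ untranslated regions (UTRs) of genes that fell, so these letters are not an independent choice. Both were searched on the sense strand of the longest 3′ UTR in GENCODE 29 (GRCh38). They overlap in the 8 bases ACACCAAA, which hold both. ONECUT2 has a 3′ UTR of 14574 bases with 4 copies of ACACCAA and 6 of CACCAAA, 3 of each joined as ACACCAAA. SNAP25 holds ACACCAAA once in 1221 bases. FBXL7 and ELFN1 hold CACCAAA once each, in 2609 and 871 bases. AMTN and CLDN3, with 277 and 390 bases, hold neither. Upstream of the 3′ UTR in the same transcripts, the heptamers match at 3 places in ONECUT2, 2 in FBXL7 and 0 in AMTN, ELFN1, CLDN3 and SNAP25. The stretches around the ACACCAAA copies and the single matches are shown with the matched letters in capitals.
ONECUT2, chr18:57477983-57478012, plus strand: gaaaacacagcACACCAAAgaagcagaata
ONECUT2, chr18:57482407-57482436, plus strand: attattctcacACACCAAAatgactctgac
ONECUT2, chr18:57484290-57484319, plus strand: tcgtgttgatgACACCAAAgataccaaaga
SNAP25, chr20:10307214-10307243, plus strand: tagagctatgcACACCAAAttgctgagatg
FBXL7, chr5:15938567-15938595, plus strand: tgcgtgttttcCACCAAAgaatgcaaagc
ELFN1, chr7:1747136-1747164, plus strand: cagagactcagCACCAAAcccaacacacg

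A long UTR holds such letters more often. Of 13962 tested genes with a 3′ UTR, 4.23% held ACACCAAA and a further 14.5% held 1 or both heptamers apart. Among genes whose 3′ UTR was within 1.25-fold of the ONECUT2 length, 79.5% held a heptamer and 26.0% held ACACCAAA. At the lengths of SNAP25, FBXL7 and ELFN1, 13.3%, 26.7% and 9.2% held a heptamer, and 2.6% held ACACCAAA at the SNAP25 length. At the lengths of AMTN and CLDN3 the heptamer share was 3.5% and 5.4%. Leaving out the 6 genes, the median log2 change of CA2 shRNA against Scrambled was -0.26 for 589 genes with ACACCAAA, -0.10 for 2020 genes with a heptamer only, and 0.04 for 11347 genes with neither. The same groups had medians of -0.02, -0.02 and -0.01 in Scrambled against Control. Earlier results of these data drew attention to the heptamers in genes that fell, so that choice favours the lower medians, which carry no test. The groups with a match also had longer 3′ UTRs, with medians of 3227 and 2927 bases against 1092, and the part of length in these medians was not tested. The matches are a description of the letters, and nothing here shows what binds them.

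**Figure D1:**
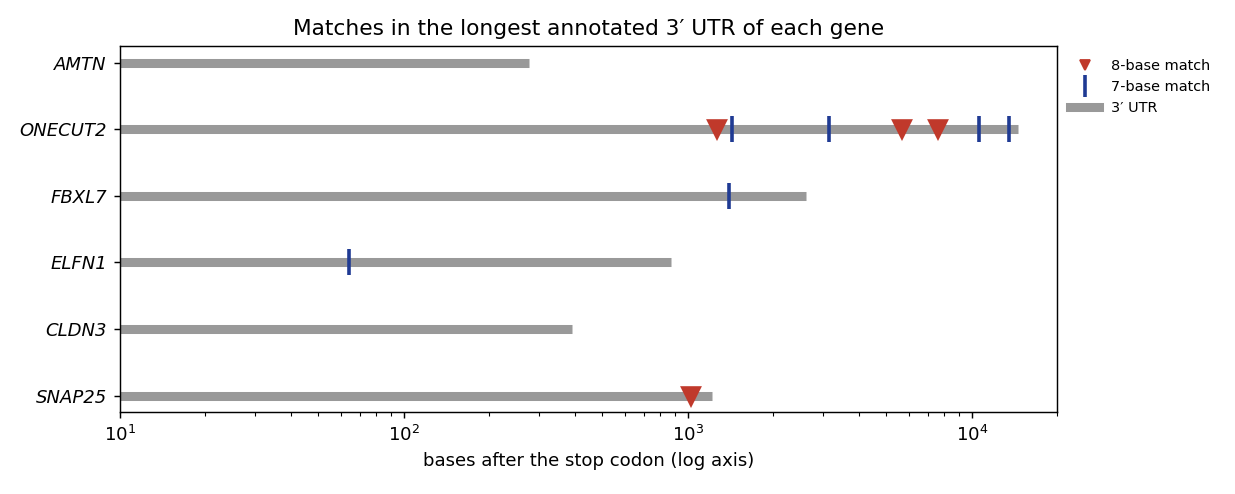
Position of the matches along the longest GENCODE 29 3′ UTR of each gene, in bases after the stop codon on a log axis. Triangles are 8-base matches and ticks are 7-base matches; ONECUT2 carries matches at 7 places along 14574 bases, SNAP25, FBXL7 and ELFN1 carry 1 each, and AMTN and CLDN3 carry none.

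AMTN (ENSG00000187689) occupies chr4:70518569-70532743 of GRCh38, plus strand. Counts of the gene came to 9, 13 and 27 in CA2 shRNA, 62, 79 and 103 in Scrambled, and 58, 61 and 74 in Control. Scaled for depth with TMM factors, the levels were 0.448, 0.783 and 0.985 CPM in CA2 shRNA, 2.75, 2.91 and 3.48 in Scrambled, and 2.43, 2.97 and 2.17 CPM in Control. Every CA2 shRNA library was below every other library. The mean in CA2 shRNA was 24.3% of the Scrambled mean and 29.3% of the Control mean. The log2 change was -2.01 (SE 0.262) against Scrambled and -1.72 (SE 0.269) against Control. At these depths a count of 9 has an exact 95% Poisson interval of 4.12 to 17.1, which covers counting error only. The CA2 shRNA libraries varied by 36.7% (coefficient of variation of CPM), where counting alone gives 24.7%. Leaving out CA2 shRNA 1 gave -1.72 against Scrambled, and leaving out CA2 shRNA 3 gave -2.30.

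ONECUT2 (ENSG00000119547) occupies chr18:57435374-57491298 of GRCh38, plus strand. Counts of the gene came to 38, 22 and 48 in CA2 shRNA, 102, 161 and 167 in Scrambled, and 130, 105 and 163 in Control. The levels were 1.89, 1.33 and 1.75 CPM in CA2 shRNA, 4.52, 5.93 and 5.64 in Scrambled, and 5.45, 5.11 and 4.77 CPM in Control. The highest CA2 shRNA library thus stood at 1.89 CPM and the lowest of the 6 others at 4.52 CPM. The log2 change was -1.68 (SE 0.179) against Scrambled and -1.60 (SE 0.181) against Control.

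FBXL7 (ENSG00000183580) occupies chr5:15500180-15939795 of GRCh38, plus strand. Counts of the gene came to 17, 11 and 29 in CA2 shRNA, 62, 73 and 79 in Scrambled, and 69, 72 and 74 in Control. The levels were 0.847, 0.663 and 1.06 CPM in CA2 shRNA, 2.75, 2.69 and 2.67 in Scrambled, and 2.89, 3.51 and 2.17 CPM in Control. The CA2 shRNA libraries lay below the 6 others, among which the Scrambled libraries fell inside the range of Control. Its coefficient of variation was 1.54% in Scrambled, far under the 11.8% that counting alone gives, and 23.5% in Control. The log2 change was -1.61 (SE 0.25) against Scrambled and -1.67 (SE 0.25) against Control. An antisense gene, CTD-2350J17.1, lies within the locus, had 41, 87 and 57 summed counts in CA2 shRNA, Scrambled and Control, and shares no exonic base with FBXL7.

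ELFN1 (ENSG00000225968) occupies chr7:1688119-1747954 of GRCh38, plus strand. Counts of the gene came to 34, 30 and 55 in CA2 shRNA, 151, 139 and 133 in Scrambled, and 112, 107 and 186 in Control. The levels were 1.69, 1.81 and 2.01 CPM in CA2 shRNA, 6.70, 5.12 and 4.49 in Scrambled, and 4.70, 5.21 and 5.45 CPM in Control. The CA2 shRNA libraries lay below all others. Their coefficient of variation was 8.64%, under the 15.9% that counting alone gives. The log2 change was -1.54 (SE 0.184) against Scrambled and -1.47 (SE 0.185) against Control. ELFN1-AS1, an antisense gene in the locus, had 3, 3 and 1 summed counts in CA2 shRNA, Scrambled and Control and shares no exonic base with ELFN1.

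CLDN3 (ENSG00000165215) is a gene of 1 exon at chr7:73768997-73770270 of GRCh38, minus strand. Counts of the gene came to 25, 31 and 26 in CA2 shRNA, 103, 96 and 96 in Scrambled, and 80, 77 and 130 in Control. The levels were 1.25, 1.87 and 0.949 CPM in CA2 shRNA, 4.57, 3.54 and 3.24 in Scrambled, and 3.36, 3.75 and 3.81 CPM in Control. No CA2 shRNA library reached the lowest comparison library, Scrambled 3. The log2 change was -1.52 (SE 0.231) against Scrambled and -1.48 (SE 0.232) against Control. It ran from -1.80 without CA2 shRNA 2 to -1.26 without CA2 shRNA 3 against Scrambled. AMTN was highest among the CA2 shRNA libraries in CA2 shRNA 3, where CLDN3 was lowest.

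SNAP25 (ENSG00000132639) occupies chr20:10218830-10307418 of GRCh38, plus strand. Counts of the gene came to 233, 161 and 309 in CA2 shRNA, 393, 510 and 612 in Scrambled, and 421, 391 and 625 in Control. The levels were 11.6, 9.70 and 11.3 CPM in CA2 shRNA, 17.4, 18.8 and 20.7 in Scrambled, and 17.7, 19.0 and 18.3 CPM in Control. The groups were apart, with a mean in CA2 shRNA of 57.2% of Scrambled and 59.2% of Control. The log2 change was -0.80 (SE 0.0972) against Scrambled and -0.75 (SE 0.0976) against Control. SNAP25-AS1, on the opposite strand, had 49, 69 and 62 summed counts in CA2 shRNA, Scrambled and Control and shares no exonic base with SNAP25. The exon that differs between the known SNAP25 isoforms cannot be read from counts per gene.

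**Figure D2:**
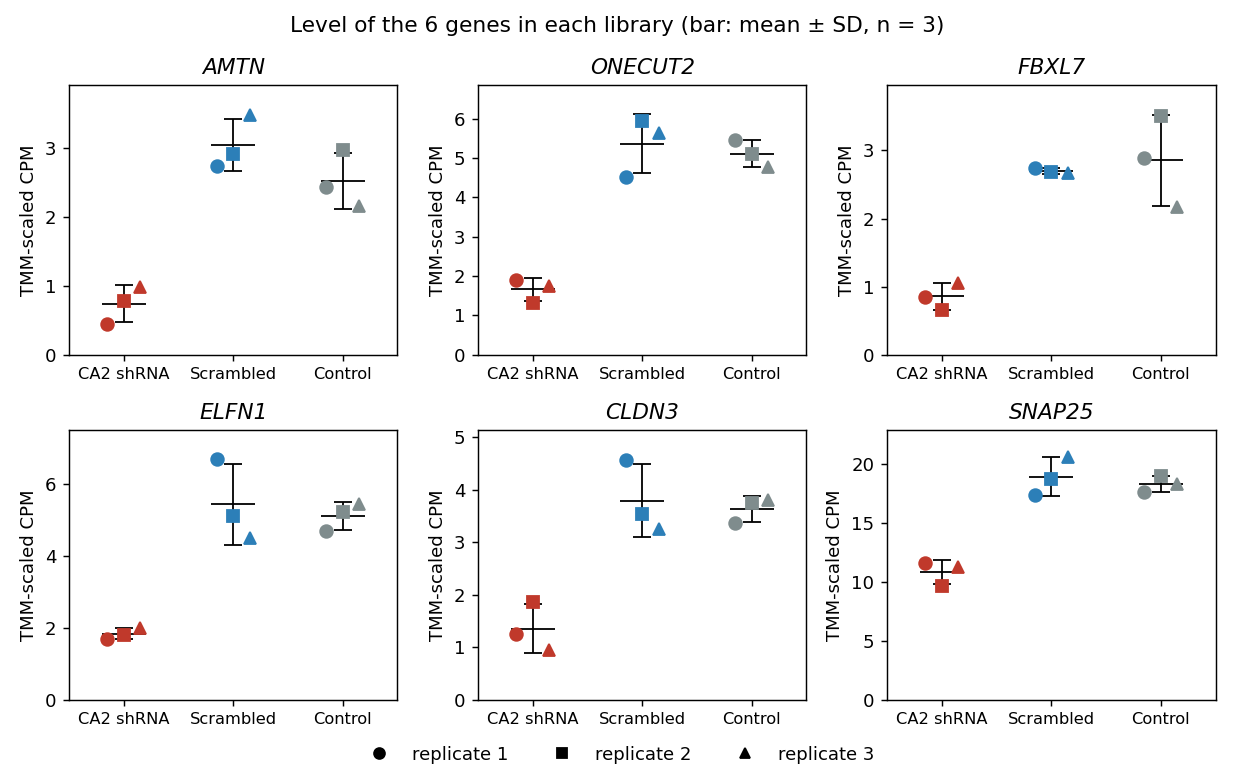
TMM-scaled CPM of each gene (vertical axes start at 0) in the CA2 shRNA, Scrambled and Control libraries, with the mean and SD of 3 libraries as black bars and the marker shape giving the replicate number. In all 6 panels the CA2 shRNA points lie below the other 6 points; the CA2 shRNA mean is 24.3% of the Scrambled mean in AMTN and 57.2% in SNAP25.

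All 6 genes had their 3 CA2 shRNA libraries below the 6 others, as did 11.9% of the 19812 tested genes. Lower levels at an adjusted p under 0.05 in both CA2 shRNA comparisons were called in 6.98% of tested genes. Nothing is read from the count of 6, since the same values chose the genes. Both comparisons also share the CA2 shRNA libraries. The size of the falls was uneven. Ordered from the most negative log2 change against Scrambled, AMTN was at place 7 of 19812, ONECUT2 at 24, FBXL7 at 30, ELFN1 at 40, CLDN3 at 41 and SNAP25 at 704. Places among the 1432 protein-coding genes called lower with a mean of at least 2 CPM depend on the same contrast and on that cutoff. AMTN and FBXL7 only just pass the cutoff. The places there were 1, 3, 5, 7 and 8, and 165 for SNAP25. SNAP25 thus does not belong to the largest falls by log2 change, against the label under which it was listed. Its 95% interval, -1.01 to -0.60, contained the change of CA2 itself, -0.77 (95% interval -1.26 to -0.29). The other 5 genes had changes of -1.52 or below against Scrambled. CA2 shares that contrast, so the values stand side by side without a test.

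**Figure D3:**
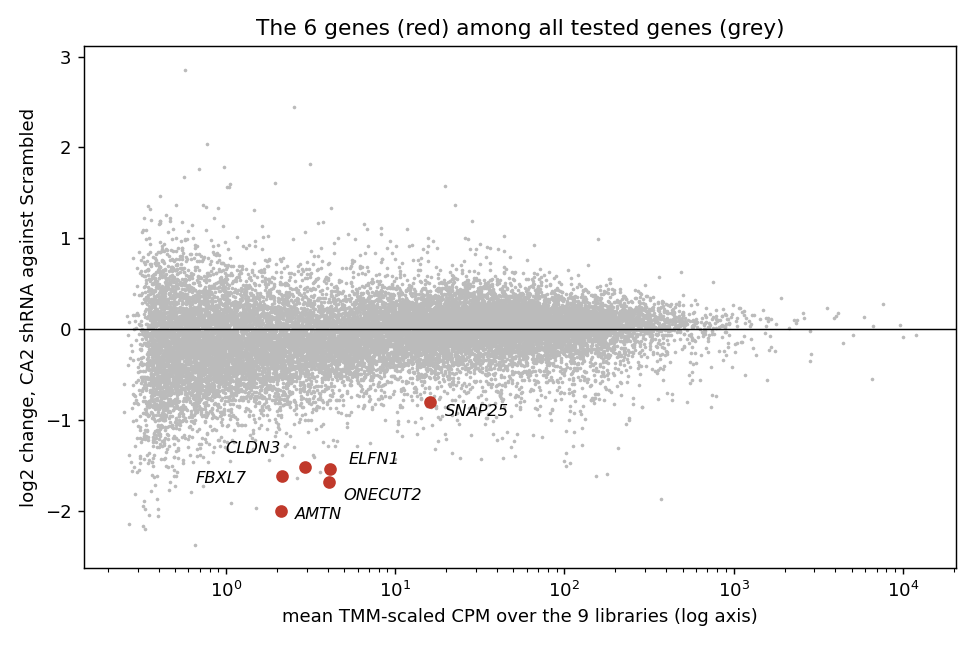
Log2 change of CA2 shRNA against Scrambled for each tested gene against its mean TMM-scaled CPM over the 9 libraries (log axis), with the 6 genes in red. Red points of AMTN (2.10 CPM), FBXL7 (2.14), CLDN3 (2.93), ONECUT2 (4.05) and ELFN1 (4.13) lie at the lower edge of the grey cloud, and SNAP25 (16.05 CPM) lies within its lower part.

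The comparison of Scrambled with Control is a different contrast from the one behind the choice, although its libraries served as the comparison groups there. With edgeR's quasi-likelihood test, 0% of tested genes passed an adjusted p of 0.05, and 2.78% passed an unadjusted p of 0.05. DESeq2 called 1 gene. Of the 6 genes, 0 passed, 0 were under an unadjusted p of 0.05, and 0 had Scrambled and Control libraries that did not overlap, as 6.81% of tested genes had. AMTN had the largest difference, a log2 change of 0.29 with a 95% interval of -0.16 to 0.75 (adjusted p = 1, edgeR quasi-likelihood). ONECUT2 had 0.08 (-0.24 to 0.40), FBXL7 -0.06 (-0.50 to 0.38), ELFN1 0.07 (-0.26 to 0.41), CLDN3 0.05 (-0.37 to 0.46) and SNAP25 0.05 (-0.14 to 0.25). These intervals leave room for a difference of up to 0.75 in AMTN. They end at 0.25 for SNAP25, the gene with the highest counts. Without Control 3 and Scrambled 2, the changes of AMTN, ONECUT2, FBXL7, ELFN1, CLDN3 and SNAP25 against Scrambled were -2.02, -1.58, -1.59, -1.56, -1.55 and -0.785.

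**Figure D4:**
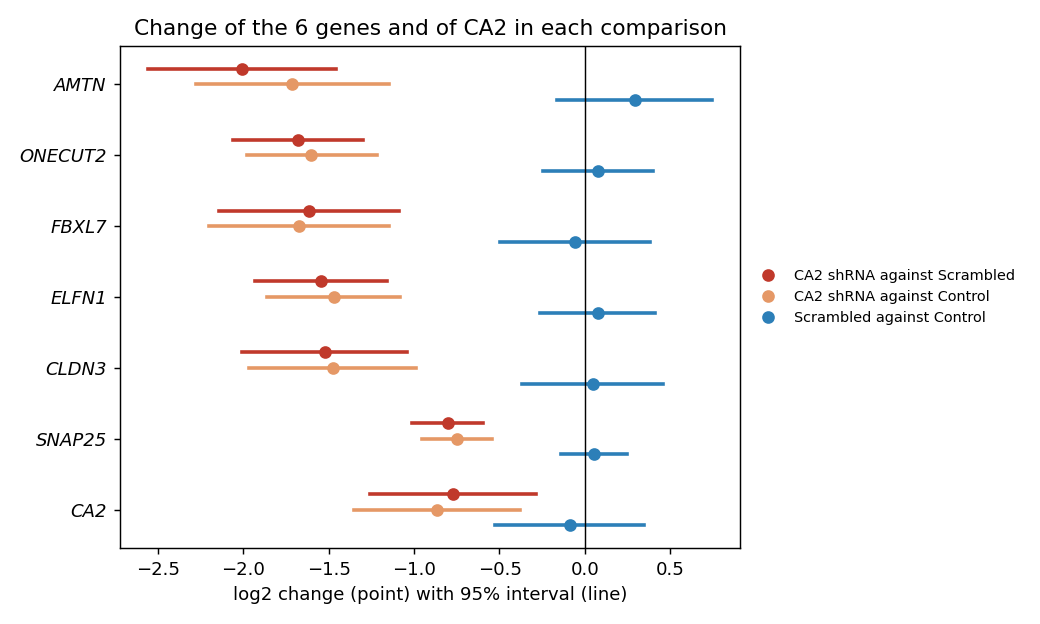
Log2 change of each gene and of CA2 in the 3 comparisons, as points with 95% intervals. The points of both CA2 shRNA comparisons, which chose the 6 genes and are shown as a description, run from -2.01 for AMTN to -0.75 for SNAP25, and the intervals of Scrambled against Control include 0.

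Levels between genes were compared per length of exon, as RPKM. In CA2 shRNA the order of the means was SNAP25 at 3.23 ± 0.358 RPKM, CLDN3 at 1.06 ± 0.345, AMTN at 0.731 ± 0.272, ELFN1 at 0.477 ± 0.0454, FBXL7 at 0.176 ± 0.0435 and ONECUT2 at 0.100 ± 0.0194 (SD, n = 3). In Scrambled it was SNAP25 at 5.67 ± 0.462 RPKM, AMTN at 3.03 ± 0.368, CLDN3 at 2.98 ± 0.562, ELFN1 at 1.42 ± 0.303, FBXL7 at 0.557 ± 0.011 and ONECUT2 at 0.326 ± 0.0442. In Control it was SNAP25 at 5.45 ± 0.168 RPKM, CLDN3 at 2.85 ± 0.176, AMTN at 2.49 ± 0.394, ELFN1 at 1.33 ± 0.093, FBXL7 at 0.585 ± 0.136 and ONECUT2 at 0.308 ± 0.0219. AMTN and CLDN3 overlapped in every group, and AMTN and ELFN1 overlapped in CA2 shRNA, so their order there is not set beyond the spread. The other neighbours did not overlap in any group. By mean CPM, SNAP25 stood at the 56.4th percentile of tested genes and the 5 others between the 31.1st and the 39.0th. All 6 passed the filter on low counts, and each reached its 0.422 CPM in all 3 libraries of every group, CA2 shRNA included.

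The genes most like each of the 6 over the 9 libraries were found by the root-mean-square difference of centred log2 CPM. Since all 6 were chosen for a low CA2 shRNA level, the nearest genes are other genes low in those libraries. For AMTN they were FBXL7 (0.321), PPDPF (0.324) and STX11 (0.331), against a median of 0.938 over 12939 coding genes. For ONECUT2 they were SGMS2 (0.134), LPGAT1 (0.136) and PALLD (0.151). For FBXL7 they were ONECUT2 (0.203), DBNDD1 (0.217) and ACOT7 (0.224). For ELFN1 they were GNPDA1 (0.139), DBNDD1 (0.166) and MSC (0.167). For CLDN3 they were RNF10 (0.246), ELFN1 (0.253) and TRMT112 (0.257). For SNAP25 they were KIF16B (0.0465), AMIGO2 (0.0656) and KLHDC2 (0.0658). AMTN and CLDN3, the genes with the most uneven CA2 shRNA libraries, had the most distant neighbours. Among the 6 themselves ONECUT2 and FBXL7 were the closest pair at 0.203, and AMTN and SNAP25 the farthest at 0.59.

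Genes related to each of the 6 were then followed from lists written with earlier results of these data known. The shares called over all tested genes were 8.02% higher and 8.88% lower in CA2 shRNA against Scrambled, with a median log2 change of -0.03, and 6.41% and 8.26% against Control, with a median of -0.0048. The adjusted p-values are from edgeR's quasi-likelihood test over all genes. In these related genes the heptamers were searched in the longest 3′ UTR only, and what a gene holds refers to that stretch.

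Of 19 enamel and bone matrix genes listed with AMTN, 4 passed the filter on low counts and were tested. The enamel genes AMBN, ENAM, ODAM and AMELX had at most 3 summed counts in any group. SPARC, an abundant bone and connective tissue glycoprotein, rose to 939 ± 32.0 CPM in CA2 shRNA, against 656 ± 15.1 CPM in Scrambled (SD, n = 3 each, log2 change 0.52, adjusted p = 3.22e-06). Its change against Control was 0.46 (adjusted p = 1.35e-05). SPARC holds neither heptamer. The 3 other tested genes, RUNX2, SP7 and ALPL, did not pass, and the median of the 4 was -0.10 against Scrambled and 0.11 against Control.

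Of 6 other cut-class homeobox genes 4 were tested, and 2 fell against Scrambled, 0 rose and 2 did not pass, with a median of -0.59. CUX1, a broadly expressed member, fell to 101 ± 3.75 CPM in CA2 shRNA, against 171 ± 9.95 CPM in Scrambled (log2 change -0.75, SE 0.0572, adjusted p = 5.25e-08), and by 0.71 on the log2 scale against Control. Its 3′ UTR of 9191 bases holds ACACCAAA at 2 places. ONECUT3, a paralog of ONECUT2, stood at 14.2 ± 1.52 CPM in CA2 shRNA and 19.6 ± 3.71 CPM in Scrambled. Its log2 change was -0.46 (adjusted p = 0.0356). Leaving out Control 2, Scrambled 1 or 3, or any 1 CA2 shRNA library ended that call, with adjusted p-values of 0.000142 to 0.147 over the alternatives. ONECUT3 holds neither heptamer, and did not pass against Control (-0.32, adjusted p = 0.159; under 0.05 in 5 of 17 alternatives). In CA2 shRNA against Control, 1 of the 4 fell, with a median of -0.34. ONECUT1 had 6, 15 and 6 summed counts in CA2 shRNA, Scrambled and Control and was not tested.

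Among 22 tested F-box genes of the FBXL family and subunits of the SCF ligase, 3 rose and 2 fell against Scrambled and 17 did not pass, with a median of -0.06. SKP2, the F-box protein that marks cell cycle inhibitors, rose to 109 ± 2.56 CPM in CA2 shRNA, against 79.8 ± 6.78 CPM in Scrambled (log2 change 0.45, adjusted p = 0.000135). FBXL5, the iron sensor of the family, fell to 45.0 ± 0.861 CPM in CA2 shRNA, against 61.9 ± 6.26 CPM in Scrambled (-0.46, adjusted p = 0.000175). FBXL19 fell as well (-0.37, adjusted p = 0.000124). In CA2 shRNA against Control, 1 rose and 3 fell, with a median of 0.0041, and the log2 changes were 0.41 for SKP2, -0.56 for FBXL5 and -0.35 for FBXL19. SKP2, FBXL5 and FBXL19 hold neither heptamer.

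Of 23 leucine-rich repeat synaptic genes and glutamate receptors listed with ELFN1, 10 were tested. In CA2 shRNA against Scrambled, 1 rose, 3 fell and 6 did not pass, with a median of -0.23, and against Control, 0 rose and 4 fell, with a median of -0.26. LRFN3 fell to 25.7 ± 1.4 CPM in CA2 shRNA, against 35.5 ± 3.33 CPM in Scrambled (log2 change -0.47, adjusted p = 0.000496), and holds CACCAAA once. ELFN2 and the glutamate receptor GRM4 were named after their values were seen. ELFN2 had -0.28 against Scrambled (adjusted p = 0.00415) and -0.28 against Control (adjusted p = 0.00519). GRM4 had -0.74 against Scrambled, which did not pass (adjusted p = 0.0517), and -1.01 against Control (adjusted p = 0.00947). SLITRK6 stood at 0.905 ± 0.486 CPM in CA2 shRNA and 1.80 ± 0.368 CPM in Scrambled (-0.93, adjusted p = 0.0499). The SLITRK6 call against Scrambled held in 7 of 17 alternatives (adjusted p 0.0161 to 0.177). Among those that ended it were leaving out any 1 Control library, Scrambled 1 or 3, or CA2 shRNA 2 or 3. Against Control the SLITRK6 change was -1.20 (adjusted p = 0.0116), under 0.05 in 17 of 17 alternatives (0.000441 to 0.0483). FLRT3 stood at 1.90 ± 0.127 CPM in CA2 shRNA and 0.992 ± 0.352 CPM in Scrambled (0.93, adjusted p = 0.0217). The FLRT3 call ended on leaving out Scrambled 1 or 3, or CA2 shRNA 2 or 3 (adjusted p 0.00292 to 0.0911 over the alternatives), and FLRT3 did not pass against Control (adjusted p = 0.121). SLITRK6 and FLRT3 hold neither heptamer.

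Of 25 tested claudins and tight junction genes, 4 rose and 3 fell in each CA2 shRNA comparison and 18 did not pass. The medians were -0.04 against Scrambled and 0.07 against Control. JAM2, a junctional adhesion molecule, fell to 1.69 ± 0.356 CPM in CA2 shRNA, against 3.34 ± 0.556 CPM in Scrambled (log2 change -0.99, SE 0.21, adjusted p = 0.00284). Its 3′ UTR holds ACACCAAA once. CLDN12 rose to 13.4 ± 1.27 CPM in CA2 shRNA, against 9.02 ± 0.829 CPM in Scrambled (0.58, adjusted p = 0.00179), and holds ACACCAA once. Its rise of 0.47 against Control was lost without Control 2 (adjusted p = 0.0705, 0.000887 to 0.0705 over the alternatives). CLDN14, a claudin of the inner ear and kidney, had 31, 96 and 84 summed counts in CA2 shRNA, Scrambled and Control. Its log2 change of -1.29 against Scrambled (adjusted p = 0.0111) ended on leaving out Scrambled 3, or CA2 shRNA 1 or 3 (0.00707 to 0.0633 over the alternatives). The -1.14 against Control (adjusted p = 0.028) ended on leaving out Control 1 or 2, or CA2 shRNA 1 or 3 (0.0186 to 0.128). CLDN14 holds neither heptamer.

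Epithelial markers were listed because CLDN3 is best known from epithelia. Of 14 markers 8 were tested, and 1 rose and 1 fell against Scrambled, while 0 passed against Control, where KRT8 (adjusted p = 0.052) was under 0.05 in 8 of 17 alternatives. Their summed level ran from 79.7 to 88.8 RPKM in CA2 shRNA, 72.2 to 78.2 RPKM in Scrambled and 73.5 to 77.5 RPKM in Control, mostly from KRT8 and KRT18, and 0 of the 14 had no count. EPCAM had 10, 9 and 22 summed counts and GRHL2 had 1, 1 and 5 in CA2 shRNA, Scrambled and Control. KRT8 rose to 297 ± 18.3 CPM in CA2 shRNA, against 255 ± 11.7 CPM in Scrambled (adjusted p = 0.0142), a call lost without Scrambled 3 or CA2 shRNA 2 (0.00234 to 0.101 over the alternatives). Reads of KRT8 may be split with its pseudogenes. ESRP2, a splicing regulator, had a log2 change of -0.57 (adjusted p = 0.0392), which ended on leaving out Control 2, Scrambled 1 or 3, or any 1 CA2 shRNA library, with DESeq2, with no filter on low counts and with only the 2 groups in the fit (0.0119 to 0.163 over the alternatives, 8 of 17 under 0.05). ESRP2 holds ACACCAA once and KRT8 holds neither heptamer. The part of the epithelial markers in the CLDN3 level was not tested.

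Of 29 tested SNARE fusion genes listed with SNAP25, 3 rose, 2 fell and 24 did not pass in each CA2 shRNA comparison, with medians of 0.01 against Scrambled and -0.03 against Control. STX3, a syntaxin of apical and neuronal membranes, rose to 18.4 ± 1.47 CPM in CA2 shRNA, against 9.65 ± 0.282 CPM in Scrambled (log2 change 0.93, SE 0.0941, adjusted p = 1.64e-06). STX11, a syntaxin of cytotoxic lymphocytes, fell to 1.15 ± 0.525 CPM in CA2 shRNA, against 2.85 ± 0.399 CPM in Scrambled (-1.27, SE 0.274, adjusted p = 0.00348). The STX11 3′ UTR holds ACACCAAA, that of STX1A holds CACCAAA once, and STX3 holds neither heptamer. STX1A, the syntaxin that pairs with SNAP25 in neurons, had a change of 0.37 against Scrambled (adjusted p = 0.0361). Leaving out Control 2, Scrambled 2 or 3, or any 1 CA2 shRNA library, or using upper-quartile factors, ended the call (0.00322 to 0.115 over the alternatives), and its change against Control was 0.51 (adjusted p = 0.00645). The relatives of SNAP25, named for their kinship after their values were seen, did not pass: SNAP23 had -0.06, SNAP29 -0.02 and SNAP47 0.01 against Scrambled. SNAP47 was at 9.56 ± 0.442 RPKM and SNAP29 at 7.41 ± 0.489 RPKM in CA2 shRNA, both above SNAP25, and SNAP23 was at 1.66 ± 0.0623 RPKM.

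Neuronal markers were listed because SNAP25 and ELFN1 are best known from neurons. Of 14 markers 7 were tested, and 1 fell and 6 did not pass in each CA2 shRNA comparison, with medians of -0.19 against Scrambled and -0.19 against Control. Their summed level ran from 8.81 to 11.1 RPKM in CA2 shRNA, 12.1 to 13.4 RPKM in Scrambled and 12.6 to 13.3 RPKM in Control. INA, a neuronal intermediate filament gene that made up most of that sum, fell to 23.3 ± 1.74 CPM in CA2 shRNA, against 30.4 ± 3.04 CPM in Scrambled (log2 change -0.38, adjusted p = 0.00452). Near 0 were STMN2 with 2, 0 and 0 summed counts, DCX with 2, 1 and 1, ELAVL4 with 1, 0 and 3 and MAP2 with 0, 1 and 2 in CA2 shRNA, Scrambled and Control. Detected in Scrambled without passing in either CA2 shRNA comparison were TUBB3 (1.11 RPKM), SYN1 (0.762), SYP (0.511), NEFL (0.233), ELAVL3 (0.231) and RBFOX3 (0.228). Their log2 changes against Scrambled were -0.145, 0.112, -0.505, 0.196, -0.189 and -0.523, in that order. The part of the neuronal markers in the SNAP25 and ELFN1 levels was not tested. Of 11 tested chondrocyte markers 1 rose and 1 fell in each CA2 shRNA comparison, with medians of -0.17 against Scrambled and -0.23 against Control. COMP, a cartilage matrix protein, had -0.86 against Scrambled (adjusted p = 0.0161), lost without CA2 shRNA 2 (0.00957 to 0.0725 over the alternatives). Its change against Control, -0.83 (adjusted p = 0.0215), ended on leaving out Control 1 or 3, or CA2 shRNA 2 or 3 (0.0135 to 0.0908). SOX9 had 0.20 (adjusted p = 0.0364), which ended on leaving out Control 2, Scrambled 1 or 3, or CA2 shRNA 1 or 2, and with upper-quartile factors (0.0163 to 0.121). The SOX9 change against Control (adjusted p = 0.0381) ended on leaving out Control 1 or 2, Scrambled 3, or CA2 shRNA 1 or 2 (0.00396 to 0.19). The summed level of the chondrocyte list ran from 33.1 to 33.9 RPKM in CA2 shRNA, 30.2 to 32.2 RPKM in Scrambled and 29.1 to 32.3 RPKM in Control. INA, COMP and SOX9 hold neither heptamer.

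**Figure D5:**
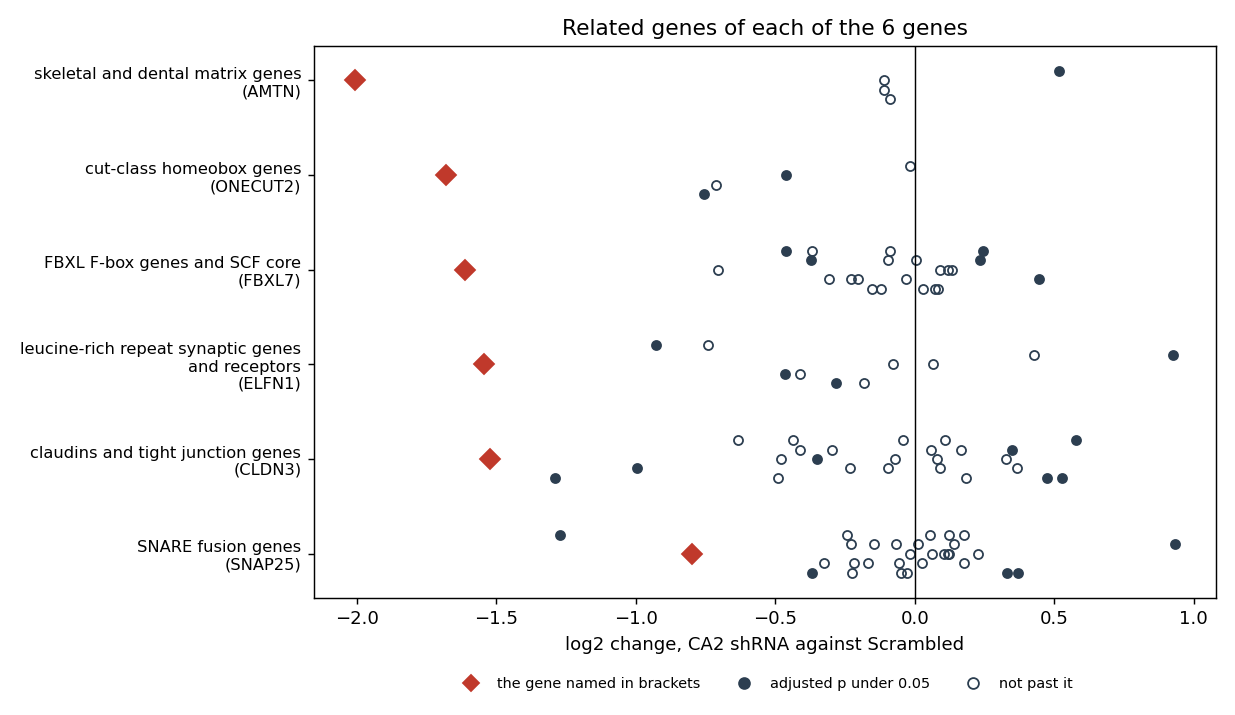
Log2 change of CA2 shRNA against Scrambled for the tested genes of each related list (circles, filled where the adjusted p is under 0.05) and for the gene of the list's name (red diamond). The diamonds of AMTN, ONECUT2, FBXL7, ELFN1 and CLDN3 lie to the left of every gene in their lists, as their choice for large falls favours, while STX11 lies to the left of SNAP25.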

How the data were processed

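Read counts per gene were the authors' own, 1 table per library with 60671 Ensembl genes, deposited beside CPM and RPKM columns per the file headers. The deposited CPM and RPKM are scaled to library size, and RPKM also to exon length; RPKM was used for levels between genes. STAR 2.5.1a and featureCounts 1.4.6-p5 on GRCh38 are named in the submitters' processing notes, and the strand setting is not given in the sources used here. A gene name table matched 60401 IDs to symbols, and GENCODE 29 matched a further 246.

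Deposited counts were tested with edgeR 4.0.16 (filterByExpr, 19812 genes kept; TMM; robust quasi-likelihood F test, all 9 libraries fitted together, Benjamini-Hochberg adjusted, threshold 0.05), and the code was tested on simulated data. DESeq2 1.42.0 was an alternative. The 6 genes, the related lists and the heptamers were chosen with earlier results of these data known. The text names the 6 genes, CA2, up to 3 genes of each list with the largest changes against Scrambled past the threshold, and the 3 coding genes nearest in pattern to each of the 6. Other genes named were chosen after their values were seen. Pattern distances used log2 CPM with a prior count of 2 among coding genes with a mean of at least 1 CPM.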

Additional observations from a re-analysis of the deposited data

How the results depend on the processing

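In 17 alternatives of normalization, tool, filter, libraries and design, the 6 genes kept the direction of their change in both CA2 shRNA comparisons. Each moved by less than the spread between replicates. Where a library was left out, both outcomes were largely fixed in advance, so nothing is read from them. Every CA2 shRNA library was below the 6 others in these genes, and the same values chose them. Leaving out 1 of 3 libraries also shifts a group mean by less than that spread. The number of genes past the threshold in CA2 shRNA against Scrambled was 3348. With 1 library left out it was 2059 to 4011, the lowest without Scrambled 3. Without both Control 3 and Scrambled 2 it was 4289. Against Control it was 2906, and 1962 to 3662. In Scrambled against Control it was 0, and 0 to 1 with 1 library left out; DESeq2 called 1 gene and no filter on low counts called 7, and the cause was not tested. Rises and falls against Scrambled were 1589 and 1759 with TMM factors, 1810 and 1596 with DESeq2 size factors and 1372 and 1971 with upper-quartile factors. The replicate numbers were shared between groups, and the labels do not say whether they pair the libraries. Deviations from the group means had correlations of -0.19 to 0.11 between same-numbered libraries and -0.225 to 0.301 between others. With 3 libraries per group these values cannot settle whether libraries were paired. With the replicate block the counts were 3422, 2946 and 0. With a prior count of 0.5, all 3 nearest genes were shared for AMTN and FBXL7 and 2 of 3 for the other genes. Counts of 9 to 31 for AMTN, FBXL7 and CLDN3 in CA2 shRNA limit the precision of their folds.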
